A study of Homo sapiens with 6 samples.

Results

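PSD3, PDE4D, CCDC102B and FANCC each carry a remnant of HML-2, a subtype of the human endogenous retrovirus HERV-K, inside their span, and their RNA was followed across AT/RT cell lines together with the long terminal repeat (LTR) elements they contain. They are 4 of the 294 genes that overlap a HERVK-int or LTR5_Hs element, out of 36532 genes in the files. The members were chosen by their measured TPM in these libraries, for differing between cell lines, so those differences are given below as a description and were not tested. Stranded total RNA sequencing was run on 6 libraries of atypical teratoid rhabdoid tumor (AT/RT) cells. The lines CHLA 02 and CHLA 05 gave 1 library each, while CHLA 04 and CHLA 06 gave 2 technical replicates each, so each line is 1 biological sample and no p-value between lines can be given. All 4 lines grew in DMEM:F12 with EGF, basic FGF and B-27, the labels name no treatment, and no non-tumor cell and no line with restored SMARCB1 was among the libraries.

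PSD3 encodes an exchange factor that loads GTP onto the small GTPase ARF6 at the plasma membrane. PDE4D hydrolyses the second messenger cAMP. Its long forms start at far upstream promoters and its short forms at internal promoters, and the short forms lack part of the regulatory upstream conserved regions. CCDC102B is a component of the linker that holds centrosomes together, and FANCC belongs to the Fanconi anemia core complex, which acts on DNA interstrand crosslinks. LTR5_Hs is the long terminal repeat of the youngest HML-2 proviruses, most of which survive only as a solitary LTR. An LTR inside a gene is also read when the unspliced RNA of that gene is sequenced, so reads on the gene's own strand can come from the host transcript.

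The sequences below are shown because the results compare transcripts by their annotated first exons. No start of RNA was measured directly, and the use of these first exons was not tested. The first is GRCh38 chr18:68823216-68823466 on the plus strand, inside the span of CCDC102B. It runs through the end of a MER51E element, an LTR of an older retrovirus family, and the capitals mark the first exon of ENST00000577772, the most abundant CCDC102B transcript in CHLA 02 and CHLA 06. The next 2 lie on the minus strand at chr5:59276040-59276199 and chr5:59039436-59039595 in PDE4D, and there the capitals mark the first 80 bases of the first exons of ENST00000503258 and ENST00000515011.
MER51E and ENST00000577772: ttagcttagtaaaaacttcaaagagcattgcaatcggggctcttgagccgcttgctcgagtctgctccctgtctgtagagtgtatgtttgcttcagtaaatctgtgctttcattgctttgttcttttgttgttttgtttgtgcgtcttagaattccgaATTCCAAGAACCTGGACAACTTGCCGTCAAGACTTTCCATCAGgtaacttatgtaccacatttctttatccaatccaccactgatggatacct
ENST00000503258: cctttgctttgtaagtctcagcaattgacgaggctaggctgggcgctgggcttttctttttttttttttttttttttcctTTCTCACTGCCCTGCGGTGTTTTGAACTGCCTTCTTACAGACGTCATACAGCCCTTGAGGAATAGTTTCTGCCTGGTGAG
ENST00000515011: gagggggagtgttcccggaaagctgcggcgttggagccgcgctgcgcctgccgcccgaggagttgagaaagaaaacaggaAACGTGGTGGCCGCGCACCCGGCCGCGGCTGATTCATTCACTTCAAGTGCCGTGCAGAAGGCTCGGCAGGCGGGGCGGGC
The PDE4D windows of 160 bases differed in composition, with a GC content of 45% and 4 CpG dinucleotides at ENST00000503258 against 67.5% and 18 CpG at ENST00000515011. The same window had 67.5% and 19 CpG at ENST00000358923, which starts next to ENST00000515011. It had 61.25% and 10 CpG at ENST00000502575, whose TPM followed that of ENST00000503258, and 66.9% and 8 CpG at ENST00000340635. It had 25.6% and 1 CpG at ENST00000546160 and 46.25% and 1 CpG at ENST00000317118. Both were present in CHLA 04, with means of 24.8 and 26.2 TPM, although ENST00000503258 was nearly absent there. A link between composition and the lines was not tested.

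PSD3 (ENSG00000156011, GRCh38 chr8:18527301-19084730, minus strand, 20 transcripts) was highest in CHLA 05 and close to absent in CHLA 06. In the order CHLA 02, CHLA 04 replicate 1, CHLA 04 replicate 2, CHLA 05, CHLA 06 replicate 1 and CHLA 06 replicate 2, which is kept for every list of 6 values, its level was 33.6, 96.6, 72.4, 554.8, 1.93 and 1.51 TPM. Gene TPM (transcripts per 1000000) adds up the deposited TPM of all transcripts of that gene. The 4 lines did not overlap. The mean of CHLA 04 was 84.5 ± 17.1 TPM and that of CHLA 06 1.72 ± 0.298 TPM (SD, n = 2 technical replicates), and CHLA 05 was 321.9-fold above CHLA 06. In CHLA 06 the gene still had 60 and 75 reads, with exact 95% Poisson intervals of 1.48 to 2.49 and 1.19 to 1.90 TPM, so a low level and not a zero was measured. In bulk RNA fewer expressing cells and less RNA per cell cannot be told apart.

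PDE4D (ENSG00000113448, GRCh38 chr5:58969038-60522120, minus strand, 27 transcripts) was low in CHLA 05 alone among these 4 lines. Its level was 253.7, 206.5, 264.4, 13.4, 294.0 and 202.0 TPM. The other lines came to 253.7 in CHLA 02, 248.0 ± 65.1 in CHLA 06 and 235.4 ± 40.9 in CHLA 04, which differed by less than the SD of the technical replicates. CHLA 05 lay 18.9-fold below CHLA 02, with 362 reads and an interval of 12.1 to 14.9 TPM.

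CCDC102B (ENSG00000150636, GRCh38 chr18:68715209-69055189, plus strand, 13 transcripts) split the lines into a high and a low pair. Its level was 364.1, 11.0, 7.77, 9.84, 311.5 and 325.4 TPM. CHLA 02 and CHLA 06 (318.4 ± 9.85) stood at the 97.7th to 98.4th percentile of the genes above 0 in their libraries, and CHLA 04 (9.40 ± 2.31) and CHLA 05 at the 41.7th to 44.0th. CHLA 04 and CHLA 05 differed by less than the technical SD.

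FANCC (ENSG00000158169, GRCh38 chr9:95099054-95317709, minus strand, 10 transcripts) varied least. Its level was 111.9, 55.1, 71.3, 43.4, 212.4 and 140.4 TPM, with CHLA 06 (176.4 ± 50.9) 4.06-fold above CHLA 05. The replicates of CHLA 06 differed by more than counting error, since their intervals of 206.5 to 218.3 and 135.9 to 145.0 TPM did not overlap. None of the 6 libraries was as low for FANCC as CHLA 06 was for PSD3.

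**Figure D1:**
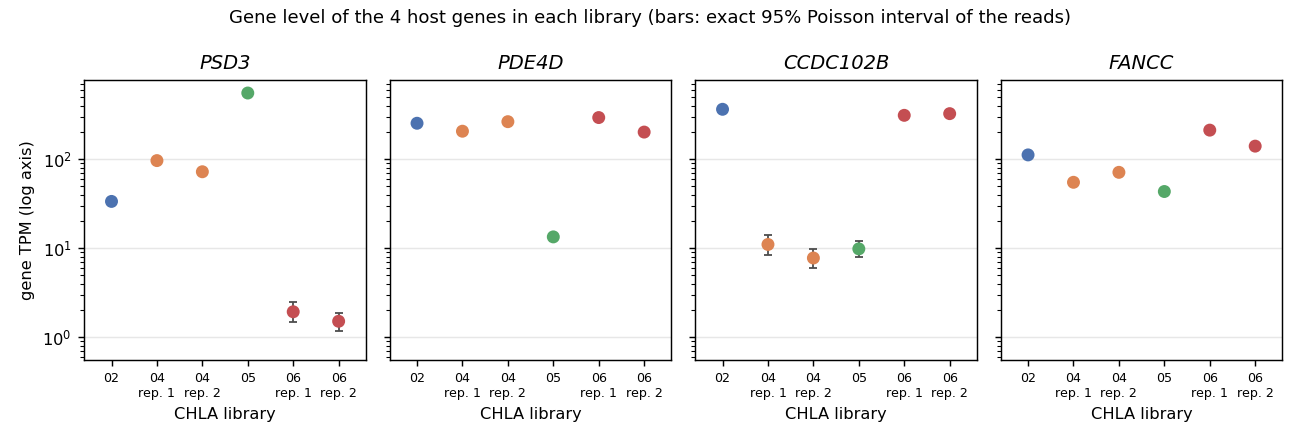
Gene TPM (log axis) of PSD3, PDE4D, CCDC102B and FANCC in each of the 6 libraries, with exact 95% Poisson intervals of the recovered reads as bars and 1 color per cell line. PSD3 spans 1.51 to 554.8 TPM, PDE4D is low only in CHLA 05, CCDC102B is low in CHLA 04 and CHLA 05, and FANCC stays between 43.4 and 212.4 TPM.

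To set these differences against other genes, the range of log2(TPM + 1) over the 4 lines was taken, with technical replicates averaged. It was 7.67 for PSD3, 5.13 for CCDC102B, 4.14 for PDE4D and 1.998 for FANCC. Of 16035 genes that reached 1 TPM in a line, 3345 (20.9%) had a range of at least 2, as had 38 of 171 HML-2 host genes (22.2%). PSD3 held rank 90 among all genes and rank 2 among the hosts, CCDC102B ranks 519 and 7, PDE4D ranks 929 and 15, and FANCC ranks 3349 and 39. FANCC fell just below the limit of 2, next to the host genes PID1 (2.01) and SPSB2 (2.00), and it was at 1.67 without CHLA 06 replicate 1 and at 2.26 without CHLA 06 replicate 2. Since the members were selected on this contrast, nothing is read from 3 of 4 being past the limit.

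Several facts of the libraries bear on these values. Reads on transcripts numbered 10265899 to 20520229 per library and reads on LTR elements 355302 to 511408. SMARCB1, the gene typically inactivated in AT/RT, was at 13.5 to 26.2 TPM in the 6 libraries, so its RNA was not absent, and TPM does not show whether it is mutated. The paper describes all of the lines as lacking SMARCB1 expression, and the reason for this difference was not tested. It also places CHLA 06 in a different AT/RT subgroup from the other lines. With CHLA 06 alone in its subgroup, subgroup and line cannot be told apart. Of the neural markers, VIM was at 4629 to 19464 TPM, TUBB3 at 204.7 to 455.3, NES at 5.21 to 27.6 and SOX2 at 0 to 4.03. GFAP, the intermediate filament of astrocytes, had 23.9, 45.3, 47.9, 150.6, 0.0419 and 0.0379 TPM, and PAX6, a neuroectodermal factor, had 15.8, 29.7, 26.2, 36.9, 0.604 and 0.937 TPM. GFAP and PAX6, which were named after their values were seen, placed the lines in the same order as PSD3. By line means SOX2 did so too, with 0.119, 0.470, 0.173, 4.03, 0 and 0.186 TPM. Outside CHLA 05 it had at most 5 reads per library. Of the 16035 genes that reached 1 TPM in a line, 6035 were lowest in CHLA 06 and 4803 highest in CHLA 05. The share of genes with the full order was not counted. Not every marker had this order. VIM and TUBB3 were highest in CHLA 06 (means of 17086 and 383.3 TPM), where PSD3 was lowest. NES was higher in CHLA 02 (25.6 TPM) than in CHLA 04 (mean of 8.87 TPM). The part of GFAP and PAX6 in the level of PSD3 was not tested.

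The leading transcripts of PSD3 by TPM followed the gene. They were ENST00000518315, with 5.55, 30.2, 21.9, 168.7, 0.429 and 0.194 TPM, and ENST00000523619, with 2.73, 17.2, 12.8, 148.7, 0.143 and 0.0862 TPM. Their ranges on the log2 scale were 7.02 and 7.07, and both placed the 4 lines in the order of the whole gene. ENST00000518315 took 30.4% of PSD3 TPM in CHLA 05 and 30.9% in CHLA 04, against 16.5% in CHLA 02. As a share of recovered reads, which does not divide by transcript length, these were 10.9%, 11.4% and 6.50%, and ENST00000523619 led with 7904 reads against 1988 in CHLA 05. In CHLA 06 ENST00000518315 rested on 6 and 3 reads, too few to give a share. Not every transcript followed the gene, and ENST00000521878 was at 3.93 TPM in CHLA 04 and 3.97 TPM in CHLA 05. ENST00000519653 and ENST00000519851 were the remaining transcripts with at least 10% of PSD3 TPM in a line, and they reached this only in CHLA 06, from the same small number of reads.

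PDE4D transcripts did not move together, and lines that had the same gene level differed in their most abundant transcript by TPM. ENST00000503258, whose first exon lies 1246 kb into the gene, had 59.3, 0.331, 0.659, 2.14, 90.4 and 55.7 TPM. ENST00000515011, whose first exon lies 1483 kb into the gene, had 35.2, 112.5, 85.8, 1.69, 32.5 and 18.1 TPM. CHLA 04 was thus the lowest line for the first and the highest for the second, with 4 and 13 reads against 1035 and 1288 reads. ENST00000358923, which starts next to ENST00000515011, had 32.5, 50.4, 65.7, 1.39, 27.7 and 16.6 TPM. ENST00000515011 and ENST00000358923 together took 78.9% and 57.3% of PDE4D TPM in the CHLA 04 replicates, against 26.7% in CHLA 02, 23.0% in CHLA 05 and 20.5% and 17.2% in the CHLA 06 replicates.

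ENST00000502575, which starts 753.5 kb into PDE4D, followed ENST00000503258, with 17.1, 0.227, 0.139, 0.147, 31.4 and 21.9 TPM. In CHLA 04 and CHLA 05 each of these values stood for 1 read. ENST00000340635 starts 628.3 kb into the gene and codes for a long form. It had 29.3, 12.7, 29.8, 2.31, 50.4 and 35.6 TPM. Unlike ENST00000503258, it was not nearly absent in CHLA 04. Its mean there was 21.2 ± 12.1 TPM, below 29.3 in CHLA 02 and a mean of 43.0 in CHLA 06. This transcript shares exons with most of the others, and reads on shared exons are divided among transcripts by the quantifier, so its level does not by itself show use of its first exon. ENST00000546160 and ENST00000317118, with 36.04 and 24.8 TPM in CHLA 02, complete the transcripts with at least 10% of PDE4D TPM in a line. By recovered reads, which do not divide by transcript length, the leading transcripts were others. ENST00000546160 led in CHLA 02 with 1854 reads and in CHLA 04 replicate 2 with 1867. ENST00000515011 led in CHLA 04 replicate 1 with 1035, and ENST00000340635 in the CHLA 06 replicates with 3211 and 2502.

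Most CCDC102B transcripts were higher in CHLA 02 and CHLA 06. ENST00000577772, which begins in the MER51E element, had 119.7, 1.69, 0.848, 1.40, 101.7 and 118.0 TPM. It was the most abundant transcript in CHLA 02 and CHLA 06, with 32.9% and 34.5% of CCDC102B TPM, against 13.5% in CHLA 04 and 14.2% in CHLA 05. Of the transcripts with at least 10% of CCDC102B TPM in a line, the exception was ENST00000580292, a transcript that begins at the 5′ end of the gene and ends before the MER51E element. It had 2.49, 2.54, 1.79, 2.39, 2.29 and 3.21 TPM and a log2 range of 0.24, so that it took 0.685% of CCDC102B TPM in CHLA 02 and 24.3% in CHLA 05. The low pair of lines therefore had this transcript of the 5′ part at the level of the high pair. This did not hold for all transcripts of the 5′ end, since ENST00000582371, which also begins there, had 40.3, 0, 0.536, 0.567, 25.1 and 28.1 TPM.

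ENST00000577772 was the only transcript of the 70 in the 4 genes whose first base lies in an LTR element of the same strand. Over all 173113 transcripts 1.40% begin in such an element, and over the 86043 transcripts that reached 1 TPM in a line 0.339%. The element had 66, 1, 3, 1, 68 and 82 reads, in total 221, the most of the 230 MER51E elements in the files, of which 49 had a read and the next had 105. Other CCDC102B transcripts start at other sites. ENST00000584156 had 66.8 TPM in CHLA 02, ENST00000577800 50.5, ENST00000360242 34.7 and ENST00000584775 17.1, and ENST00000581520, with 8.68 TPM, passed 10% of the gene only in CHLA 04.

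By transcript TPM, the same start region of FANCC led in all lines. The 5 transcripts that begin within 1 kb of its 5′ end took 72.6% to 83.8% of FANCC TPM in the 6 libraries. Reads on shared exons are divided among transcripts, so these shares do not by themselves show which first exons were used. ENST00000375305 had 31.3, 16.9, 18.98, 11.8, 65.3 and 55.5 TPM, and ENST00000490972 had 26.8, 7.25, 16.0, 14.7, 55.7 and 36.3 TPM. Both were highest in CHLA 06. ENST00000289081, ENST00000433829 and ENST00000464627 also reached 10% of FANCC TPM in a line, with 14.9, 15.7 and 7.25 TPM in CHLA 02.

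**Figure D2:**
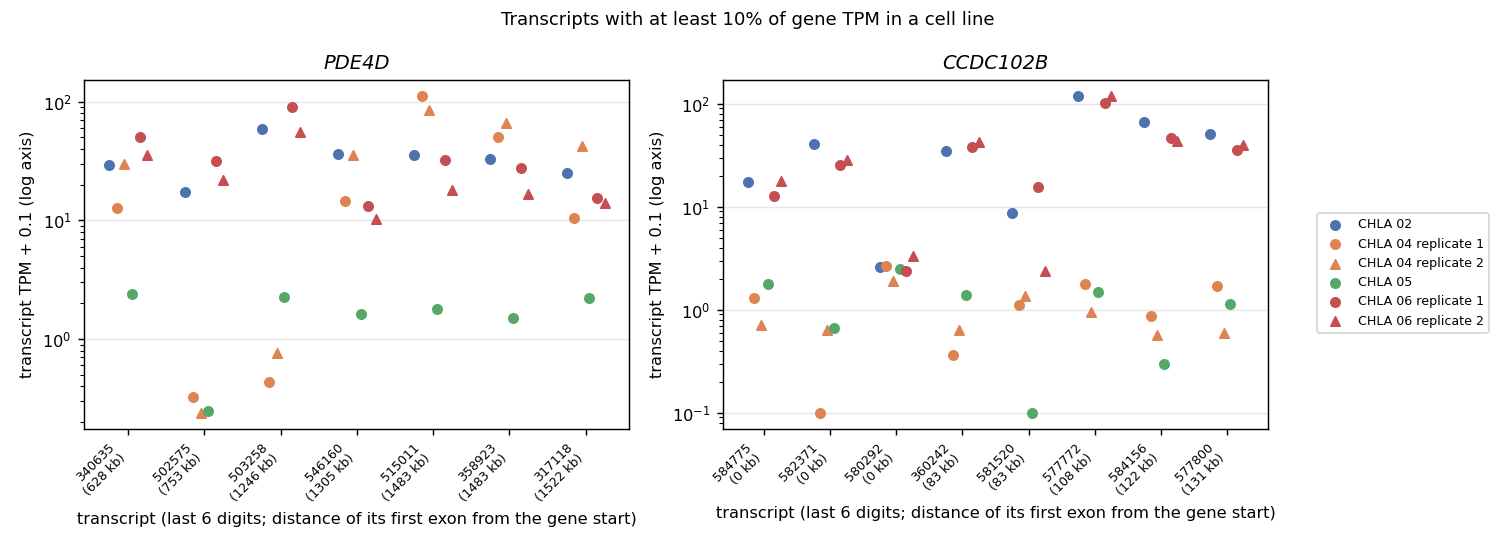
TPM + 0.1 (log axis) of each PDE4D and CCDC102B transcript with at least 10% of gene TPM in a line, ordered along the horizontal axis by the distance of its first exon from the 5′ end of the gene, with 1 point per library. In PDE4D, CHLA 04 is at 0.331 and 0.659 TPM for the transcript at 1246 kb and at 112.5 and 85.8 TPM for ENST00000515011 at 1483 kb, and in CCDC102B all 6 libraries lie at 1.79 to 3.21 TPM for ENST00000580292.

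Few reads fell on the HML-2 sequence in these genes. No HERVK-int element lies in their spans, and the 6 LTR5_Hs elements had 32 reads of the 25257 on all 875 HML-2 elements over the 6 libraries. Only 367 of the 875 had a read, so few or no reads were common among HML-2 elements. How reads that fit several LTR copies were assigned is not known, so low counts do not show that an element was silent. In PSD3, PDE4D and CCDC102B the LTR5_Hs lie on the strand opposite to the gene. The PSD3 element had 1 read in CHLA 04 replicate 1 and none elsewhere. The PDE4D element had 1 read in each CHLA 06 replicate. Of the CCDC102B elements, that at chr18:68942269-68943233 had 1 read in CHLA 06 replicate 1 and that at chr18:69042852-69043820 had 0 reads, which allows up to 3. In CHLA 05, where PSD3 was highest, its LTR5_Hs had 0 reads, and in CHLA 02, where CCDC102B was highest, both of its elements had 0.

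FANCC holds 2 fragments named LTR5_Hs in an intron, the only HML-2 elements of the 4 genes on the strand of the host, and they had the remaining 28 reads. The fragment of 239 bases had 4, 1, 2, 0, 7 and 7 reads and that of 185 bases 1, 1, 1, 2, 1 and 1. The density of the longer fragment, in reads per kb of element per 1000000 LTR reads of the library, was 35.9 in CHLA 02 and 65.3 and 60.8 in CHLA 06. All own-strand elements of FANCC together had a density of 110.1 in CHLA 02 and 217.9 and 181.4 in CHLA 06. Both LTR5_Hs fragments were below this pooled density in each library. Single elements differed, and in CHLA 06 replicate 1 the longer fragment lay above LTR16C (43.5) and below LTR12 (257.5).

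Across all LTR families, the elements inside the 4 genes were read almost wholly on the strand of the host. PSD3 held 40 elements on its own and 69 on the opposite strand, PDE4D 68 and 186, CCDC102B 49 and 53, and FANCC 20 and 17. Their own-strand elements took 99.3% of the LTR reads in PSD3 (95% Wilson interval 98.8 to 99.6), 95.2% in PDE4D (94.6 to 95.7), 98.6% in CCDC102B (98.2 to 98.9) and 99.8% in FANCC (99.5 to 99.9). Over elements that lie in exactly 1 gene of at least 1 TPM, in 9614 genes, the same share was 91.9%, while 31.3% of those elements were on the strand of their gene. These intervals and limits cover counting error only.

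The density on own-strand elements followed the gene level in PSD3, with 9.53, 42.1, 28.0, 205.7, 0.141 and 0.659. In CCDC102B it was 188.3, 8.20, 8.08, 7.36, 199.4 and 212.8, again high in CHLA 02 and CHLA 06. FANCC had 110.1, 41.6, 60.7, 67.4, 217.9 and 181.4, where CHLA 06 and CHLA 02 led as in TPM while CHLA 05 stood above CHLA 04. PDE4D had 87.2, 40.3, 47.5, 2.33, 156.2 and 137.4, so that CHLA 04, with the gene level of CHLA 02 and CHLA 06, had less RNA of its LTR elements than either. The LTR table is scaled over LTR elements alone, so these values are compared between libraries and not with TPM.

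**Figure D3:**
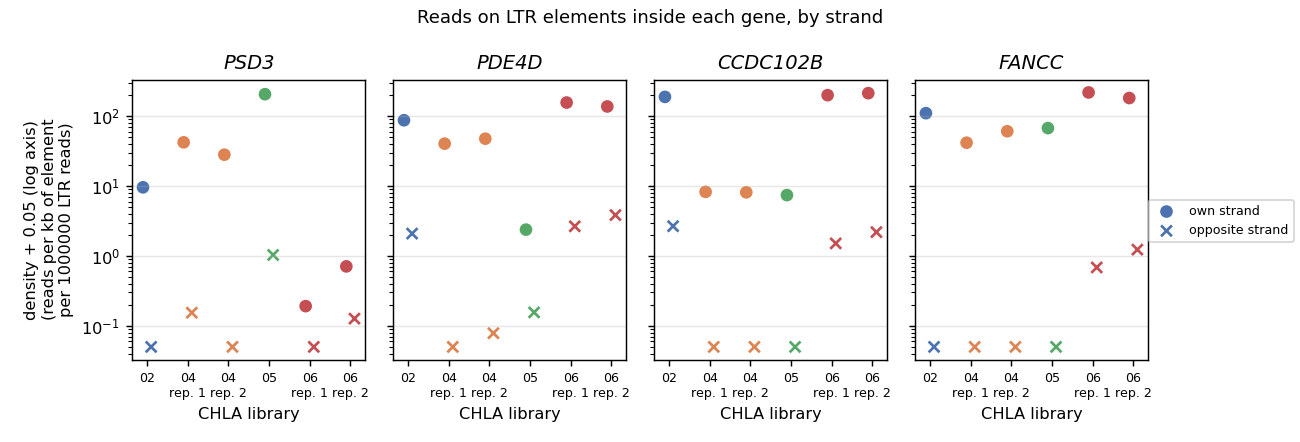
Density + 0.05 (log axis) of reads on the LTR elements inside each gene, in reads per kb of element per 1000000 LTR reads, for each library. Circles are elements on the strand of the gene and crosses those on the opposite strand. Circles lie above crosses in each library of the 4 genes, and the PSD3 circles run from 0.141 in CHLA 06 to 205.7 in CHLA 05.

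Along PDE4D, the LTR reads were counted in stretches between first exons, which were set after the values were seen. Upstream of the first exon of ENST00000340635, 42 own-strand elements over 628.3 kb had 5, 4, 18, 2, 7 and 11 reads, so little RNA was read there in any line. Between the first exons of ENST00000340635 and ENST00000503258, 19 elements had 394, 7, 17, 1, 853 and 879 reads. Between those of ENST00000503258 and ENST00000515011, 5 elements had 163, 0, 6, 6, 335 and 365 reads. CHLA 02 and CHLA 06 thus had many reads on elements of both stretches. CHLA 04 was far below them, and in the first stretch its density of 3.04 and 5.13 was above the 0.373 of CHLA 05, which stood for 1 read. The elements of the first stretch all lie at chr5:59300587-59629171. None lies in its 5′ part next to the first exon of ENST00000340635, so RNA of that part was not seen by these reads.

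Downstream of the first exon of ENST00000515011, the 2 remaining own-strand elements of PDE4D had 450, 346, 564, 15, 551 and 392 reads. Their density was 305.3, 307.6, 348.3, 11.4, 388.0 and 257.2, so CHLA 04 was level with CHLA 02 and CHLA 06 there and CHLA 05 stayed low. These are an ERVL-int of 2704 bases (chr5:58981224-58983927), with 367, 298, 488, 11, 467 and 327 reads, and MLT2B1 (chr5:58980759-58981220), with 83, 48, 76, 4, 84 and 65. They took 96.9% and 93.2% of the own-strand LTR reads of PDE4D in CHLA 04, against 44.5% in CHLA 02 and 31.6% and 23.8% in CHLA 06. MER4B (chr5:59161138-59161726), between the first exons of ENST00000503258 and ENST00000515011, had 120, 0, 3, 3, 235 and 246 reads. None of these 3 elements touches an annotated exon.

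Along CCDC102B the largest rise in pooled density between neighboring stretches in CHLA 02 and CHLA 06 was that to the MER51E element. Again the stretches were set after the values were seen, and MER51E was made a stretch of its own. From the 5′ end of the gene to the end of ENST00000580292, 10 own-strand elements had 85, 34, 42, 37, 68 and 86 reads, a density of 51.7, 27.1, 23.3, 25.3, 43.0 and 50.6. From there to MER51E, 10 elements had 14, 4, 5, 1, 9 and 17 reads. The last of these, a THE1D 98.1 kb into the gene, had 4, 0, 1, 0, 5 and 5 reads, so a smaller difference between the lines was already seen there. Its density was 50.2 in CHLA 02 and 65.2 and 60.7 in CHLA 06. The first exon of ENST00000360242, 82.9 kb into the gene, also lies in this stretch. Downstream of MER51E, 28 elements had 1129, 4, 11, 6, 1175 and 1327 reads, a density of 271.2, 1.26, 2.41, 1.62, 293.0 and 308.4. All 4 lines thus had RNA from the 5′ end of the gene. Downstream of the element the lowest library of CHLA 02 and CHLA 06 had 112.7 times the density of the highest library of CHLA 04 and CHLA 05, against a ratio of 1.58 at the 5′ end. MER51E overlaps an annotated exon. The next own-strand element, MLT1F2 of 71 bases, had 0, 0, 0, 0, 1 and 1 reads. The one after it, MLT1N2 at 127.4 kb, had 60, 0, 0, 0, 78 and 64 reads. The first exon of ENST00000584156, at 121.6 kb, lies before MLT1N2. The exact place of the rise was therefore not resolved.

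Within CHLA 02, the density of CCDC102B elements was 17.5 over the 67.8 kb upstream of MER51E, 246.9 on it and 271.2 downstream. In CHLA 06 it was 11.7 and 20.6 over the upstream stretch, 264.1 and 296.8 on it and 293.0 and 308.4 downstream. The elements with the most reads were MLT1E2 (chr18:68921381-68921928), with 132, 1, 3, 1, 157 and 166 reads, THE1D-int (chr18:68994830-68996030), with 139, 0, 0, 1, 120 and 133, and THE1D (chr18:68924194-68924568), with 97, 0, 3, 0, 120 and 115. All 3 lie downstream of MER51E and touch no annotated exon.

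**Figure D4:**
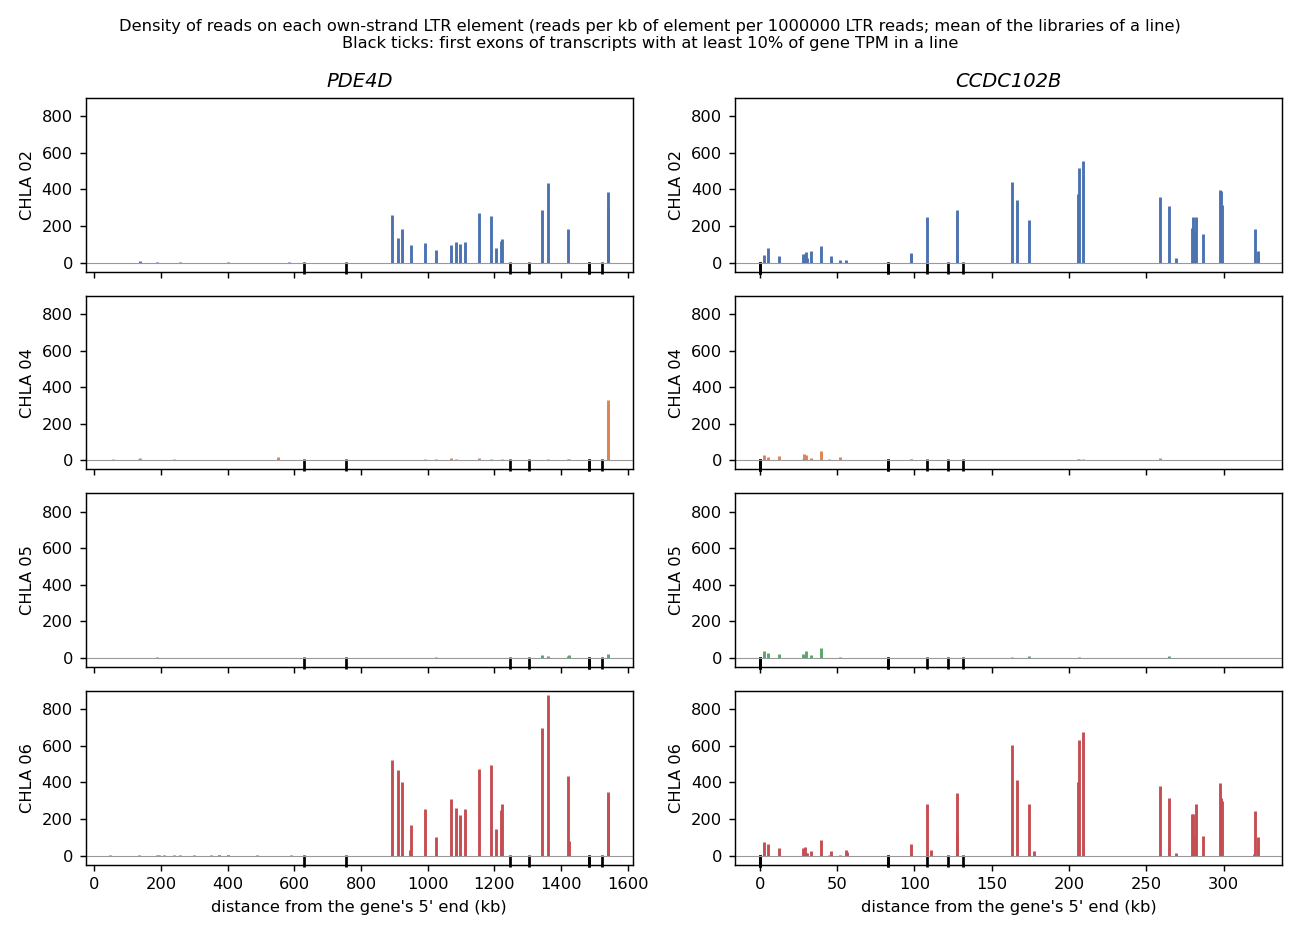
Density of reads (reads per kb of element per 1000000 LTR reads, mean of the libraries of a line) on each own-strand LTR element of PDE4D and CCDC102B, against the distance of the element from the 5′ end of the gene in kb. Black ticks mark first exons of transcripts with at least 10% of gene TPM in a line. In PDE4D, CHLA 04 rises only at the last elements while CHLA 02 and CHLA 06 are read across the gene's 3′ part, and in CCDC102B the element MER51E at 108 kb has 246.9 in CHLA 02 and 4.21 in CHLA 05.

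In PSD3 the own-strand LTR reads were spread along the gene in like proportions in CHLA 02, CHLA 04 and CHLA 05, while CHLA 06, with 1 and 5 such reads, was too low for a share. Upstream of the first exon of ENST00000327040, 9 elements had 0 reads in all 6 libraries. The next stretch, to the first exon of ENST00000523619, took 31.4% of the own-strand LTR reads in CHLA 02, 32.6% and 40.7% in CHLA 04 and 35.1% in CHLA 05. The elements with the most reads were LTR12C, with 11, 35, 25, 175, 0 and 0 reads, MER21C, with 6, 16, 20, 102, 1 and 1, and MER21B, with 5, 15, 18, 97, 0 and 0. All 3 were highest in CHLA 05, as the gene was.

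In FANCC the proportions shifted. The 5′ part of the span held 18 own-strand elements, with a density of 83.2, 44.6, 63.2, 72.1, 140.1 and 129.2. The 3′ part held 2, MER21C (chr9:95142821-95143604) and MLT1A1 (chr9:95174058-95174443), with a density of 222.1, 28.9, 50.1, 47.5, 541.1 and 397.7. MER21C had 65, 7, 23, 17, 195 and 142 reads and MLT1A1 56, 5, 7, 6, 89 and 82. LTR12 (chr9:95230438-95231069), in the 5′ part, had 41, 21, 34, 33, 73 and 63 reads. The 3′ part was thus denser than the 5′ part in CHLA 02 and CHLA 06, and less dense in CHLA 04 and CHLA 05, from only 2 elements and with the division of the span made after the values were seen.

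On the opposite strand reads were few, and those of PDE4D and CCDC102B came mostly from CHLA 02 and CHLA 06. In PDE4D there were 65, 0, 1, 3, 80 and 125, of which 1 element, MLT1H1 (chr5:59002358-59002860), had 40, 0, 0, 0, 24 and 56. In CCDC102B there were 26, 0, 0, 0, 14 and 22, led by MLT1C (chr18:68742023-68742488), with 10, 0, 0, 0, 4 and 9. PSD3 had 0, 1, 0, 11, 0 and 1, with 7 of the 11 in CHLA 05 on THE1B. FANCC had 3 opposite-strand reads in all, 2 of them on MLT1G3 in CHLA 06 replicate 2.

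Genes next to the members, within 200 kb, were examined for the same pattern. None of the 8 neighbors of PSD3 reached 1 TPM in a line. TMX3, a transmembrane thioredoxin family protein whose gene overlaps CCDC102B on the other strand, had 110.6, 45.3, 65.9, 63.9, 122.8 and 153.1 TPM, a log2 range of 1.30. It was higher in CHLA 02 and CHLA 06, as CCDC102B was, by a smaller amount. C9orf3, an aminopeptidase gene 11.8 kb from FANCC on the other strand, had 119.4, 44.1, 35.97, 62.1, 274.0 and 173.7 TPM, which was highest in CHLA 06 as FANCC was. PTCH1, the hedgehog receptor, 125.3 kb from FANCC, had 113.5, 243.9, 240.7, 208.4, 200.5 and 107.1 TPM and did not follow it. RP11-435O5.2, the remaining FANCC neighbor that reached 1 TPM in a line, stayed at 0 to 5.15 TPM.

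Around PDE4D, 4 neighbors reached 1 TPM in a line, and 1 of them was lowest in CHLA 05, as PDE4D was. DEPDC1B, a gene of dividing cells, had 17.7, 33.9, 56.3, 61.9, 9.13 and 13.3 TPM, highest in CHLA 05. RAB3C, a GTPase of secretory vesicles, had 1.97, 0.0797, 0.0814, 0.155, 4.77 and 4.50 TPM. PART1, which overlaps PDE4D on the other strand, stayed at 0 to 1.35 TPM. RP11-479O16.1 had 6.997, 3.08, 3.47, 0, 8.81 and 11.1 TPM and was listed at 0 in CHLA 05 alone.

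The genes whose levels across the 4 lines were most like each member's were found by the Euclidean distance of centred log2(TPM + 1) among 13150 genes of at least 5 TPM. With 4 points, such likeness is a description only. For PSD3 they were TLE4, a corepressor (10.3, 39.7, 29.0, 209.5, 0 and 0.0419 TPM), SOX9, a transcription factor of glial and cartilage cells, and CKB, the brain creatine kinase, at distances of 0.243, 0.559 and 0.876. For PDE4D they were GNPDA1, a glucosamine phosphate deaminase (99.5, 92.2, 112.4, 5.92, 109.7 and 108.4 TPM), DDR2, a collagen receptor kinase, and LOXL1-AS1. TPTE2P6, ADAMTS8 and RP11-556N21.1 were nearest to CCDC102B, and LMX1B, STX7 and SYTL2 to FANCC. TPTE2P6 (34.1, 0, 0, 0, 21.3 and 34.1 TPM) and RP11-556N21.1 are themselves HML-2 host genes. Of the 16035 genes that reached 1 TPM in a line, 171 were hosts, and their share among the compared genes was not counted. Both genes were at 0 TPM in CHLA 04 and CHLA 05, where CCDC102B was at 7.77 to 11.0 TPM. Their likeness to it therefore depends on the pseudocount of 1, and a link through HML-2 was not tested.

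Among exchange factors of ARF GTPases and the ARFs themselves, 4 of 18 measured genes other than PSD3 (22.2%) had a log2 range of at least 2, near the 20.9% of all genes. The median range of the list was 1.17, against 1.02 over all genes. The paralogs did not repeat the pattern of PSD3. PSD, which is expressed in brain, had 8.43, 46.2, 35.7, 8.88, 0.904 and 0.270 TPM, highest in CHLA 04. PSD2 had 1.56, 4.87, 3.88, 1.36, 0.0286 and 0.104 TPM, and PSD4 had 4.85, 0.0422, 0.179, 1.58, 3.97 and 3.07 TPM. CYTH3, a cytohesin, had 8.43, 15.9, 14.6, 42.1, 7.17 and 7.59 TPM and was highest in CHLA 05. ARF6, the substrate of PSD3, had 154.7, 50.4, 82.4, 68.0, 161.4 and 164.9 TPM. It was highest in CHLA 06 (mean of 163.1), where PSD3 was lowest, but CHLA 02 was close to that. CHLA 04 (mean of 66.4) and CHLA 05 were level in ARF6, while PSD3 differed between them. A relation between the genes was not tested.

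Of the genes of cAMP turnover and protein kinase A other than PDE4D, 12 of 28 (42.9%) had a range of at least 2, against 20.9% of all genes, with a median of 1.61 against 1.02. Among the paralogs, PDE4A had 31.6, 1.86, 1.11, 0.846, 62.2 and 47.2 TPM, PDE4B 11.4, 4.11, 7.88, 6.84, 13.9 and 12.1, and PDE4C 0.468 to 2.52. PDE4D was therefore the most abundant PDE4 gene in each library, CHLA 05 included. ADCY8, an adenylyl cyclase that makes cAMP in response to calcium, had 33.0, 0.0398, 0, 0.381, 87.0 and 58.6 TPM. PRKACB, a catalytic subunit of protein kinase A, had 260.9, 160.7, 224.4, 31.0, 476.2 and 580.0 TPM and was lowest in CHLA 05, as PDE4D was. Of the 28 genes, 8 were lowest in CHLA 05, 9 in CHLA 04 and 10 in CHLA 06. Of all 16035 genes, 3072 were lowest in CHLA 05. In 11 of the 28 (39.3%, against 21.9% of all genes) CHLA 02 and CHLA 06 both lay above CHLA 04 and CHLA 05. In 9 (32.1%, against 34.9%) both lay below.

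Of 9 genes of the centrosome linker and its regulators, 1 passed a range of 2 (11.1%, against 20.9% of all genes), and the median range was 1.05, against 1.02. This was CROCC, which codes for the linker filament rootletin, with 21.5, 56.9, 17.5, 122.8, 6.16 and 12.3 TPM, where the replicates of CHLA 04 lay far apart. CCDC102A, the paralog of CCDC102B, had 16.996, 31.5, 26.7, 21.4, 25.8 and 20.2 TPM. LRRC45, a linker protein, had 9.78, 39.8, 28.6, 20.4, 5.70 and 13.7 TPM, and NEK2, the kinase that dissolves the linker before mitosis, had 25.5, 34.7, 62.7, 61.6, 21.8 and 30.9 TPM. In none of the 9 were CHLA 02 and CHLA 06 both above CHLA 04 and CHLA 05, the pattern of CCDC102B, which 21.9% of all genes had. In 7 of the 9 both lay below them, as in 34.9% of all genes.

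Of 23 Fanconi anemia pathway genes other than FANCC, 1 had a range of at least 2 (4.35%, against 20.9% of all genes), and their median was 0.99, against 1.02. This was FANCI, which is monoubiquitinated together with FANCD2, with 86.1, 194.8, 281.5, 296.6, 42.5 and 91.6 TPM. FANCA, a core complex gene, had 36.9, 110.4, 117.3, 94.4, 26.9 and 53.3 TPM, and STRA13, which codes for a histone fold protein, had 27.0, 78.1, 95.1, 64.5, 18.3 and 29.8 TPM. CHLA 04 was the highest line for 12 of the 23 and CHLA 05 for 8, while FANCC was highest in CHLA 06. Of all 16035 genes, 5697 were highest in CHLA 04 and 4803 in CHLA 05. In 12 of the 23 (52.2%, against 34.9% of all genes) CHLA 02 and CHLA 06 both lay below CHLA 04 and CHLA 05, and in 2, BRIP1 and ERCC4, both lay above, as for FANCC.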

How the data were processed

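Total RNA of 4 AT/RT cell lines was sequenced as 6 stranded libraries of 125 bp paired-end reads. Reads were base-called with CASAVA 1.8.2, checked with FastQC and trimmed with Trimmomatic, per the submitters' processing notes. The authors mapped them in the CLCbio Genomics Workbench at default settings to Ensembl release 82 (GRCh38), and in a separate mapping to RepeatMasker LTR elements. They deposited 12 files of TPM, 1 of transcripts and 1 of LTR elements for each library. LTR TPM was scaled over LTR elements alone and rounded to 2 decimals. Program versions other than that of CASAVA are not given in the sources used here, nor is how reads that fit several transcripts or several LTR copies were assigned.

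TPM times length fell on whole multiples of the value of 1 read, within a tolerance of 0.02 reads plus rounding, for 99.3% to 100% of values above 0, and reads were recovered from this. The recovery was tested on simulated data. Gene TPM was summed over transcripts and elements were taken by overlap with the gene span. Values were described with the SD of technical replicates, exact Poisson intervals and Wilson intervals (scipy 1.17.1). No test was run, since each line is 1 biological sample. Transcripts were named if they had at least 10% of gene TPM in a line. LTR elements named are the HML-2 elements and, for each gene, the 3 own-strand and the 1 opposite-strand with the most reads. MER51E was named after its values were seen, as were the THE1D at 98.1 kb, MLT1F2, MLT1N2, LTR16C, ENST00000521878, BRIP1, ERCC4, ARF6, GFAP, PAX6, PID1 and SPSB2. Neighbors within 200 kb that reached 1 TPM, the 3 genes nearest in profile, and from each gene list the paralogs and up to 3 genes with the largest range were named. Members and lists were chosen with earlier results of these data known. Alternatives were other pseudocounts, filters and normalizations, the top transcript alone, other element sets, other read minimums and leaving out each technical replicate. Reference sequence was read from GRCh38. The sequence of the LTR5_Hs elements is not reported here.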

Additional observations from a re-analysis of the deposited data

How the results depend on the processing

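The log2 range of PSD3 went from 7.67 to 8.25 with a pseudocount of 0.1, to 7.22 with 2, to 7.02 for its most abundant transcript alone and to 7.43 after quantile normalization. That of CCDC102B went from 5.13 to 5.73 for the top transcript and 5.43 after quantile normalization, and that of PDE4D from 4.14 to 5.22 for the top transcript. Without a technical replicate the ranges were 7.57 to 7.79 for PSD3, 5.07 to 5.38 for CCDC102B (5.38 without CHLA 04 replicate 1), 4.14 to 4.35 for PDE4D and 1.67 to 2.26 for FANCC, which crossed the limit of 2. The share of genes with a range of at least 2 was 20.9%, 9.16% with no filter on low TPM and 23.2% at a minimum of 5 TPM. It was 31.9% with a pseudocount of 0.1, 16.5% with 2, and 20.6% to 22.1% without a technical replicate. The own-strand share of LTR reads in PDE4D was 95.2%, 92.6% without its element with the most reads, and 94.6% to 96.2% without a technical replicate. HML-2 elements with a read numbered 1 in PSD3, PDE4D and CCDC102B and 2 in FANCC. At a minimum of 5 reads they numbered 0, 0, 0 and 1, and at 10 reads 0 in all 4 genes, and with TPM above 10 they numbered 0 in PSD3, PDE4D and CCDC102B. Leaving out CHLA 04 replicate 1 (PSD3) or CHLA 06 replicate 1 (CCDC102B) gave 0 against 1. The cause of these shifts was not tested, other than the removal of reads or libraries itself. Of all 105 alternative values for genes and elements, 80 moved by less than the error set for them, and 25 moved by more. The shares of 16.5% and 23.2% were counted among the 80. Of 32 for transcript shares, 18 moved by less and 14 by more, all of these as shares of recovered reads, such as 34.3% against 17.2% for the top PDE4D transcript in CHLA 05 and 49.7% against 28.4% for that of FANCC in CHLA 04. No paired analysis was possible because no test was run between cell lines of 1 biological sample each. A single read decides the count in PSD3 and CCDC102B, and a culture-to-culture spread was not measured.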
